A study of Homo sapiens with 8 samples.

Results

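The alpha- and beta-tubulin isotypes are the interchangeable gene products from which microtubules are built, and 10 of their genes are described here: TUBA1A, TUBA1B, TUBA1C, TUBA3C, TUBA3D and TUBA4A for alpha-tubulin, and TUBB, TUBB2A, TUBB3 and TUBB6 for beta-tubulin. They are 10 of the 26364 gene symbols of the count table. The genes were chosen from the read counts of the same 8 libraries, so their levels and fold changes are a description and carry no test.

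RNA came from LN229, an established human glioblastoma cell line, in which 2 stable clones expressed survivin fused to GFP from the plasmid pcDNA3.1 under G418 selection. Survivin, the product of BIRC5, inhibits apoptosis and takes part in chromosome segregation. Clone D6 (Surv-GFP) carried survivin with a functional nuclear export signal (NES) and clone L2 (SurvNESmut-GFP) carried survivin with a mutated one. Both were left untreated or exposed to 50 µM temozolomide (TMZ), a methylating drug used against glioblastoma, for 48 h. Each of the 4 groups had 2 libraries, a and b. Each survivin form was represented by 1 clone, so the survivin form and the clone cannot be told apart, and both groups of a clone carried the same transgene. Whether untreated cells received the solvent of TMZ is not stated in the labels or methods. The study describes its sequencing as 2 independent biological replicates of each clone, run in technical duplicates, but the labels do not say which of these the letters are, so errors and p-values measure the spread between the letters, which may be technical.

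Between 15826923 and 18861603 reads per library fell on genes, and the correlation of log2 levels was at least 0.991 within groups and at most 0.983 between groups. Counts of libraries a and b differed by more than sampling noise in all 4 groups (chi-square per degree of freedom 2.2 to 5.74), the largest value being that of the TMZ-exposed SurvNESmut-GFP libraries. Levels are given in CPM, the reads of a gene relative to the reads of its library on a common scale, after scaling by the TMM method of edgeR. BIRC5, summed over the cell's own gene and possibly the transgene, read 1152 and 1113 CPM in untreated Surv-GFP and 407 and 414 CPM in untreated SurvNESmut-GFP. Upon TMZ it read 1938 and 2029 CPM in Surv-GFP and 262 and 253 CPM in SurvNESmut-GFP. Of the glial markers, VIM (2348 to 3783 CPM), CD44, TNC, SOX2 and S100B were present, whereas GFAP, the defining astrocyte filament, had at most 17 reads in any library. PTPRC, CD3E, CD14, EPCAM and ALB, markers of immune, epithelial and liver cells, had at most 4 reads. Of the endothelial markers VWF had 3 to 16 reads and PECAM1 at most 7. MBP, an oligodendrocyte marker of the same list, went the other way. It had 102 to 131 reads in the SurvNESmut-GFP libraries and 0 in those of Surv-GFP. In these bulk libraries, fewer cells of a kind and less RNA per cell cannot be told apart.

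Microtubules are hollow polymers of alpha/beta-tubulin dimers that form the mitotic spindle and carry intracellular transport. The isotypes of each family are nearly alike in their core and differ mainly in the acidic carboxy-terminal tail, which projects from the microtubule surface and is modified by enzymes that add or remove tyrosine, glutamate or glycine. Cells also lower tubulin mRNA when unpolymerized tubulin accumulates, a feedback known as tubulin autoregulation. TUBA1B, TUBA1C and TUBB are widely expressed, TUBA1A and TUBB3 are known from neurons, and TUBA3C and TUBA3D are known from testis.

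The last 60 coding bases of 6 members are shown because they encode these tails, where most isotypes differ; in-frame glutamate codons (GAA or GAG) are in capitals. They run 5′ to 3′ without the stop codon and were read from the GENCODE release 29 transcripts.
TUBA3C: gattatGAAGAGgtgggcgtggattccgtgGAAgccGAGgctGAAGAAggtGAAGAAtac
TUBA3D: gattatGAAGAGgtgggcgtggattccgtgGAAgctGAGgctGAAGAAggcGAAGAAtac
TUBB: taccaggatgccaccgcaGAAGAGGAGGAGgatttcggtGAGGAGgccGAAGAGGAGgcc
TUBB2A: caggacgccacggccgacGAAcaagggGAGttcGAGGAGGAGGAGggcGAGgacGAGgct
TUBB3: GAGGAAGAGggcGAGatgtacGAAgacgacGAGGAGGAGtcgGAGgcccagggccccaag
TUBB6: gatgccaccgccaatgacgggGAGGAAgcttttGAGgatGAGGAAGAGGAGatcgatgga

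The 20 codons held 9 glutamate codons in TUBB and TUBB3, 8 in TUBA3C, TUBA3D and TUBB2A, and 7 in TUBB6. TUBA3C and TUBA3D end in a tyrosine codon, the residue that detyrosinating enzymes remove. Over the whole coding sequence, 38 bases differ between TUBA1A and TUBA1B (97.2% identity).

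Likeness limits how well reads can be assigned to single isotypes. Of all 50-base windows of the coding sequence, 58.5% of TUBA1A, 75.7% of TUBA1B and 57.1% of TUBA1C occurred in a transcript of another gene, mostly in one another. For TUBB2A the share was 78.7%, of which TUBB2B accounted for 72.6% of windows, and for TUBB3 it was 95.8%, through an annotated readthrough transcript. In TUBB 33.5% of windows were shared, 29.3% with the pseudogene TUBBP1. TUBA3C shared 19.1%, TUBA4A 8.57% and TUBB6 1.55%, the lowest shares among the members. The order changes when only the alpha and beta isotype genes compared here are counted, without pseudogenes or readthrough transcripts. The share was then 19.1% for TUBA3C, 11.7% for TUBB3, 1.55% for TUBB6 and 0% for TUBB and TUBA4A. The sources name neither the read length nor the treatment of reads with several matches, so the values of members with shared windows are uncertain. The shares do not give the size of that uncertainty. They cover the coding sequence only (1332 of 2903 transcript bases in TUBB), and the rest of the transcripts was not compared.

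Of the 10 members, 9 passed the filter on low counts, and TUBA3D, with 1 read in 1 of the 8 libraries, did not. The 9 include TUBA3C, which passed through SurvNESmut-GFP alone. In Surv-GFP it was under the floor of 3 counts and could not be called. Its Surv-GFP fold change is no measurement but enters the Surv-GFP median given below. Upon TMZ, 8 of the 9 members were called lower and 0 higher in Surv-GFP (edgeR, adjusted p at most 0.05), while 30.1% of all 14201 genes tested were called higher and 28.9% lower. In SurvNESmut-GFP 6 members were called lower and 0 higher, against 18.6% of all genes higher and 19.1% lower. On the log2 scale the members of Surv-GFP had a median of -0.69 and those of SurvNESmut-GFP one of -0.23, where that of all genes was 0.00 in both. These counts describe genes that were chosen on these same contrasts, so nothing is read from them. TUBB6 in Surv-GFP (-0.16 on the log2 scale) was not called when any 1 of the 4 Surv-GFP libraries was left out, where it lay between -0.17 and -0.15. TUBA4A in Surv-GFP was not called without either untreated library or without TMZ library b, nor with DESeq2, and TUBA3C in SurvNESmut-GFP was not called without untreated library b.

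**Figure D1:**
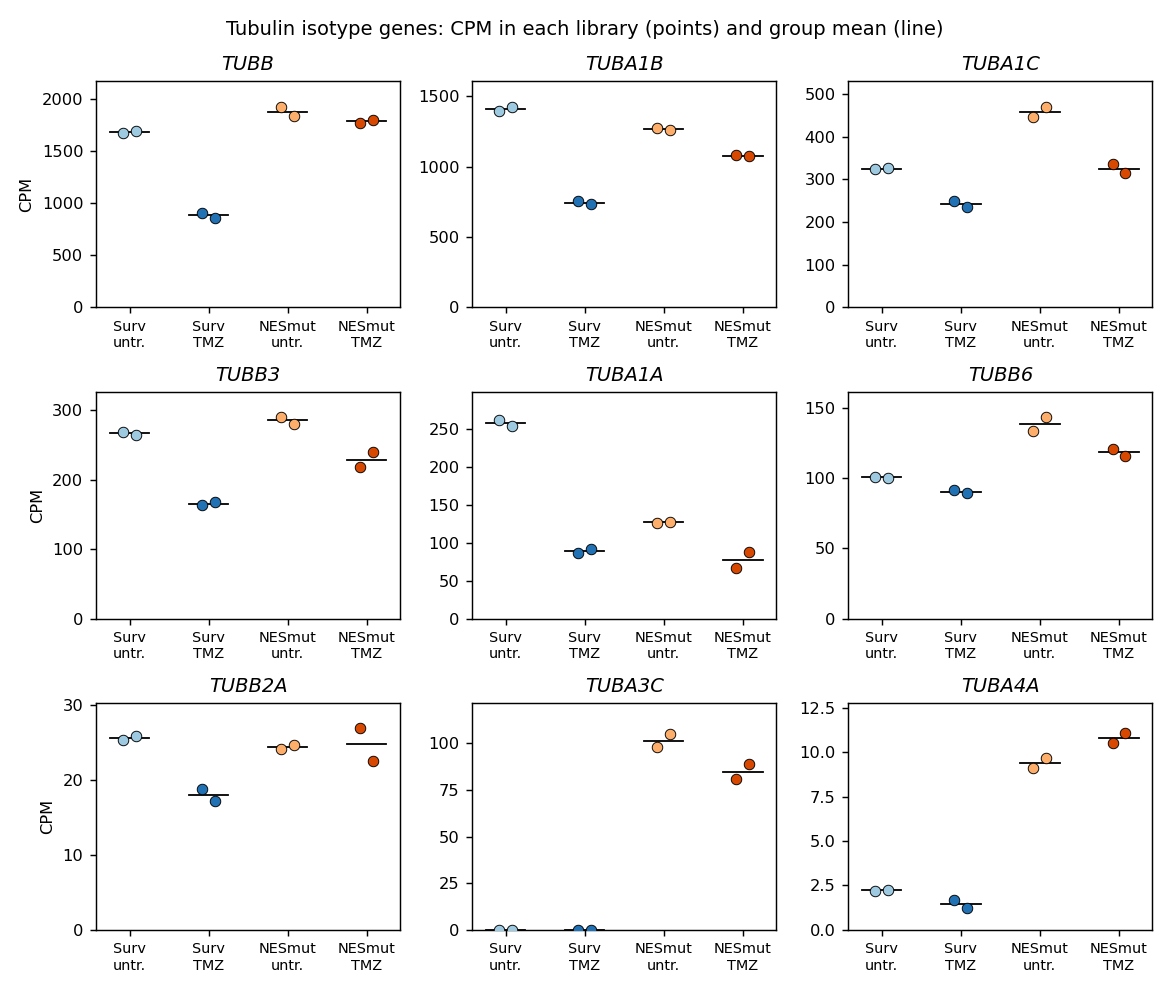
Level in CPM (vertical axis, starting at 0) of the 9 tested members in each library (points) and group mean (line), with untreated and TMZ-exposed libraries of both clones along the horizontal axis. TUBB and TUBA1B drop upon TMZ in Surv-GFP to 858 to 908 and 733 to 754 CPM, and TUBA3C is at or near 0 in all 4 Surv-GFP libraries.

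TUBA1B, the main alpha-tubulin of proliferating cells, read 1398 and 1428 CPM in untreated Surv-GFP and 754 and 733 CPM upon TMZ. In SurvNESmut-GFP it read 1273 and 1263 CPM untreated and 1082 and 1076 CPM upon TMZ. Exposed libraries were below untreated ones in both clones without overlap. The log2 fold change upon TMZ was -0.93 (SE 0.04) in Surv-GFP and -0.23 (SE 0.04) in SurvNESmut-GFP, a difference of 0.69 (SE 0.06).

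TUBA1A, an alpha isotype known from developing neurons, had the lowest fold change of the members in both clones, TUBA3C in Surv-GFP aside. It read 262 and 254 CPM in untreated Surv-GFP and 87.1 and 91.3 CPM upon TMZ, a log2 fold change of -1.53 (SE 0.08). In SurvNESmut-GFP it read 127 and 128 CPM untreated and 67.0 and 87.9 CPM upon TMZ, a log2 fold change of -0.72 (SE 0.08). The 2 exposed SurvNESmut-GFP libraries were far apart and enclosed the exposed Surv-GFP value of 87.1 CPM. The clone difference under TMZ was therefore -0.21 (SE 0.09), -0.06 without SurvNESmut-GFP library a and -0.45 without library b.

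TUBA1C, a widely expressed alpha isotype, read 324 and 326 CPM in untreated Surv-GFP and 249 and 236 CPM upon TMZ. In SurvNESmut-GFP it read 445 and 471 CPM untreated and 335 and 314 CPM upon TMZ. Its log2 fold changes of -0.42 (SE 0.05) and -0.49 (SE 0.05) gave a difference of TMZ effects of -0.08 (SE 0.07), where TUBA1B had 0.69.

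TUBA4A, an alpha isotype known from neurons and platelets, was a low member. It had 40 and 41 reads in untreated and 31 and 21 in TMZ-exposed Surv-GFP (2.17, 2.26, 1.66 and 1.21 CPM), but 168 and 174 in untreated and 180 and 176 in exposed SurvNESmut-GFP (9.11, 9.67, 10.5 and 11.1 CPM). The libraries of the 2 clones did not overlap. The log2 fold change upon TMZ was -0.62 (SE 0.24) in Surv-GFP and 0.20 (SE 0.13) in SurvNESmut-GFP. The clone difference was 2.08 (SE 0.16) without TMZ and 2.90 (SE 0.18) with it.

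TUBA3C, known from testis, was read at a level above the floor in SurvNESmut-GFP only. Surv-GFP had 1 and 0 reads untreated and 0 and 0 upon TMZ, whereas SurvNESmut-GFP had 1804 and 1893 reads untreated (97.8 and 105 CPM) and 1380 and 1407 upon TMZ (80.7 and 88.7 CPM). Summed over the untreated libraries, 3697 reads stood against 1, a ratio per library size of 3710 with a 95% exact counting interval of 665.5 to 146585. Under TMZ, 2787 reads stood against 0, which is at least 1018-fold higher with a floor of 3 counts over the group. Both intervals and floors cover counting error only. Within SurvNESmut-GFP the log2 fold change upon TMZ was -0.26 (SE 0.06); in Surv-GFP both groups were under the floor and no fold is given.

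TUBA3D is the nearest relative of TUBA3C by coding sequence, with 46 of 1350 bases different, and lies on chromosome 2 while TUBA3C lies on chromosome 13. A stretch of both (coding bases 292 to 351, counted from the first base of the start codon) shows how reads can tell them apart; the 5 differing bases are in capitals.
TUBA3C: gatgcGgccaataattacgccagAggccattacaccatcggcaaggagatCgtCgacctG
TUBA3D: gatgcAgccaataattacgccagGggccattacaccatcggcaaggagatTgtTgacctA

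TUBA3D had 1 read in 1 exposed Surv-GFP library and 0 in the other 7 libraries, SurvNESmut-GFP included. The limit that a count of 0 allows was 0.160 to 0.189 CPM per library. Since 57.2% of TUBA3D's coding windows also occur in other genes, mostly in TUBA3E (48.9%), which had at most 1 read, its own reads may be undercounted.

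The promoters of the pair are printed because the 2 genes were read so differently in SurvNESmut-GFP. They are the 250 bases before the RefSeq gene start (GRCh38.p14), in the direction of the gene, with the CCAAT box letters CCAAT or, for the other strand, ATTGG in capitals.
TUBA3C, chr13:19181825-19182074, minus strand: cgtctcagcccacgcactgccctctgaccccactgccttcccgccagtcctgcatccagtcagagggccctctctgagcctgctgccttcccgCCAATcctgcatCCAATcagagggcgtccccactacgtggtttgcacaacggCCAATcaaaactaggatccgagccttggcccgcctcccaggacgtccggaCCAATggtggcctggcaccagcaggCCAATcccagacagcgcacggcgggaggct
TUBA3D, chr2:131475869-131476118, plus strand: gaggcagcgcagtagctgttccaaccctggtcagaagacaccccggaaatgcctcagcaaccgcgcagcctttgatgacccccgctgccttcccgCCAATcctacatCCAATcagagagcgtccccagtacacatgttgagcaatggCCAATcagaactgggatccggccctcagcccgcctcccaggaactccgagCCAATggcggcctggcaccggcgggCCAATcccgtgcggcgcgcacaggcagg

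Both windows held 5 CCAAT boxes, with 14 CG dinucleotides in TUBA3C and 17 in TUBA3D. At least 1 such box, on either strand, occurred in 32.0% of all 35116 RefSeq promoter windows of this length. The match is a description of letters and says nothing of binding.

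TUBB, the beta-tubulin of most dividing cells, read 1668 and 1695 CPM in untreated Surv-GFP and 908 and 858 CPM upon TMZ, a log2 fold change of -0.93 (SE 0.05). In SurvNESmut-GFP it read 1919 and 1832 CPM untreated and 1769 and 1798 CPM upon TMZ, a log2 fold change of -0.07 (SE 0.04). The exposed SurvNESmut-GFP libraries were slightly below the untreated ones and above all 4 Surv-GFP libraries. The difference of TMZ effects was 0.86 (SE 0.06) for TUBB, beside 0.82 (SE 0.27) for TUBA4A and 0.81 (SE 0.12) for TUBA1A.

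TUBB3, the neuron-enriched class III beta-tubulin that is also expressed in gliomas, read 270 and 264 CPM in untreated Surv-GFP and 163 and 168 CPM upon TMZ. In SurvNESmut-GFP it read 290 and 281 CPM untreated and 218 and 240 CPM upon TMZ. The log2 fold changes were -0.69 (SE 0.05) and -0.32 (SE 0.05), and the groups did not overlap in either clone. Of 10 neuronal markers, 7 did not pass the filter, among them NEFL, NEFM, NEFH, RBFOX3, INA and ELAVL4 with at most 1 read in any library. Of the 3 tested (SYP, SNAP25 and GAP43), only SNAP25, a synaptic membrane fusion protein, passed the test. It fell upon TMZ by 1.01 on the log2 scale in Surv-GFP (edgeR, adjusted p = 4.2e-06) and by 0.54 in SurvNESmut-GFP (adjusted p = 0.0027, and 0.052 without untreated library b), a difference that did not pass the test (0.47, adjusted p = 0.051).

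TUBB2A, a class II beta-tubulin, read 25.4 and 25.9 CPM in untreated Surv-GFP and 18.8 and 17.2 CPM upon TMZ, a log2 fold change of -0.51 (SE 0.09). In SurvNESmut-GFP the untreated values of 24.2 and 24.7 CPM lay between the exposed values of 27.0 and 22.6 CPM, and the fold change was 0.02 (SE 0.09). TUBB6, a class V beta-tubulin, differed least upon TMZ in Surv-GFP. It read 101 and 100 CPM untreated and 91.7 and 89.3 CPM upon TMZ in Surv-GFP, and 134 and 144 CPM untreated and 121 and 116 CPM upon TMZ in SurvNESmut-GFP. Its log2 fold changes were -0.16 (SE 0.05) and -0.23 (SE 0.05).

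The difference of TMZ effects, SurvNESmut-GFP minus Surv-GFP, was called higher in 6 of 9 members and lower in 0, with a median of 0.69 on the log2 scale. Of all genes 16.6% were called higher and 20.2% lower, with a median of -0.00. The 3 members not called were TUBA1C, TUBB6 and TUBA3C, and nothing is read from these counts. TUBA3C was under the floor in Surv-GFP, so its difference is no measurement, though it enters the median of 0.69. TUBA4A, one of the 6, was not called with DESeq2, without exposed Surv-GFP library b, without either untreated Surv-GFP library or without untreated SurvNESmut-GFP library a, and its difference lay between 0.65 and 1.08 when single libraries were left out.

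Without TMZ, SurvNESmut-GFP minus Surv-GFP was called higher in 5 members (TUBA1C, TUBA3C, TUBA4A, TUBB and TUBB6) and lower in 2 (TUBA1A and TUBA1B), against 34.7% and 29.4% of all genes. As for TMZ, these counts and those that follow describe chosen genes, and nothing is read from them. The log2 differences were -1.02 (SE 0.08) for TUBA1A, -0.16 (SE 0.04) for TUBA1B, 0.50 (SE 0.05) for TUBA1C, 0.16 (SE 0.04) for TUBB and 0.46 (SE 0.05) for TUBB6. TUBB was not called without untreated SurvNESmut-GFP library a or with scaling by library size alone. TUBB3 (0.10, SE 0.05) and TUBB2A (-0.07, SE 0.09) were not called.

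Under TMZ, 8 members were called higher in SurvNESmut-GFP and 1, TUBA1A, lower, against 34.5% and 34.7% of all genes. Log2 differences were 1.01 (SE 0.05) for TUBB, 0.54 (SE 0.04) for TUBA1B, 0.47 (SE 0.05) for TUBB3, 0.47 (SE 0.10) for TUBB2A, 0.42 (SE 0.05) for TUBA1C and 0.39 (SE 0.05) for TUBB6. The value for TUBB2A was 0.29 without exposed SurvNESmut-GFP library a. TUBA1A lost its call when 1 of 6 of the 8 libraries was left out, that is, any but exposed Surv-GFP library a and exposed SurvNESmut-GFP library b. These comparisons share libraries with those of TMZ and are not independent of them.

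Dividing CPM by transcript length in kb allowed levels of different genes to be compared and summed. The 9 alpha genes of the table together read 1112 ± 10.5 CPM per kb (SD, n = 2) in untreated and 585 ± 10.6 in TMZ-exposed Surv-GFP, a change of -47.4%. In SurvNESmut-GFP they read 1068 ± 5.91 and 871 ± 4.11 CPM per kb, a change of -18.5%. The 9 beta genes read 1051 ± 10.3 and 594 ± 11.0 CPM per kb in Surv-GFP (-43.5%) and 1264 ± 23.9 and 1085 ± 5.02 in SurvNESmut-GFP (-14.2%). Alpha and beta sums thus moved by similar percentages within a clone. The SurvNESmut-GFP sum was 0.960 of the Surv-GFP sum for alpha genes without TMZ and 1.49 times it with TMZ; for beta genes the ratios were 1.20 and 1.83.

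The make-up of the alpha sum differed between the clones. TUBA1B held 78.1% ± 0.441 in untreated and 78.1% ± 0.149 in exposed Surv-GFP, and 73.0% ± 0.796 and 76.1% ± 0.657 in SurvNESmut-GFP. The share of TUBA1A was 12.1% untreated and 7.96% upon TMZ in Surv-GFP, and 6.21% and 4.64% in SurvNESmut-GFP. TUBA1C stood at 9.73% and 13.8% in Surv-GFP and at 14.3% and 12.4% in SurvNESmut-GFP, changing in opposite directions. TUBA3C held 6.13% ± 0.280 untreated and 6.27% ± 0.391 upon TMZ in SurvNESmut-GFP, with these lengths about as much as TUBA1A without TMZ.

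In the beta sum, TUBB held 55.1% ± 0.0881 and 51.2% ± 1.08 in Surv-GFP and 51.1% ± 0.703 and 56.6% ± 0.396 in SurvNESmut-GFP, untreated and exposed. TUBB4B came second with 20.6% to 27.8% of the sum in the group means. TUBB3 held 10.7% to 14.1%, and TUBB6 held 4.65% in untreated and 7.38% in exposed Surv-GFP but 5.32% and 5.29% in SurvNESmut-GFP. TUBB2A stayed between 1.21% and 1.90%. These shares depend on the transcript length taken for each gene.

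**Figure D2:**
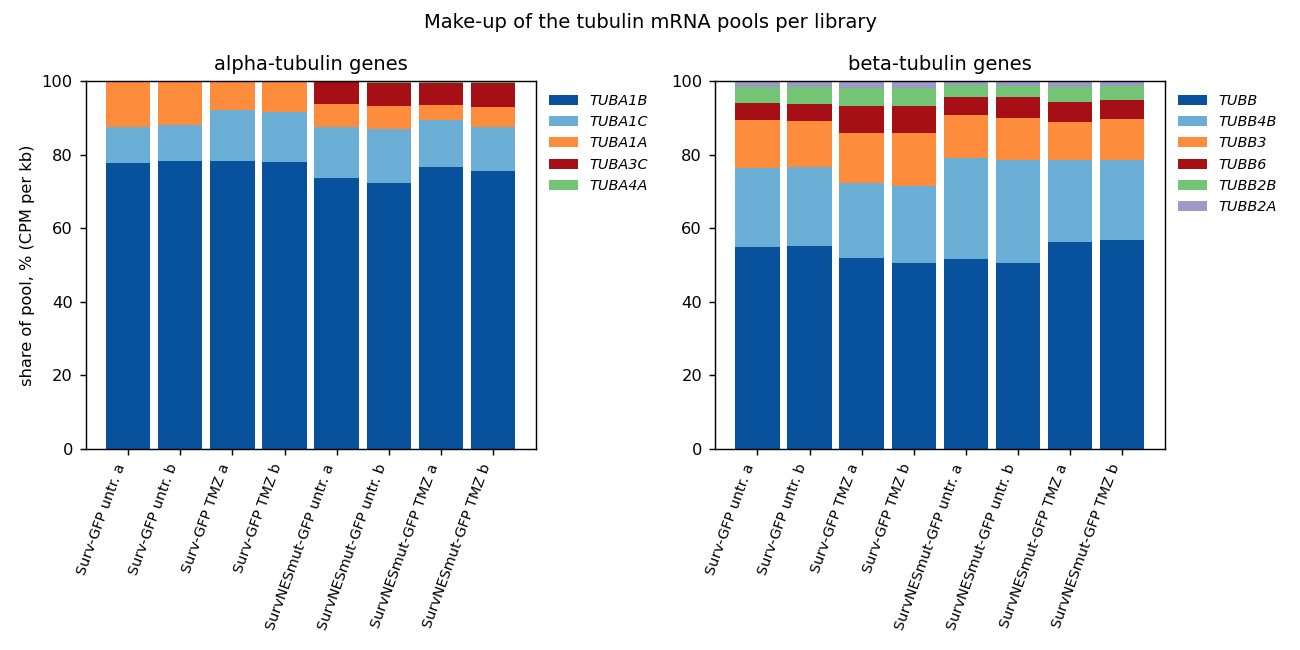
Share in percent (vertical axis) of each gene in the summed CPM per kb of the alpha (left) and beta (right) tubulin genes in each of the 8 libraries (bars). TUBA3C fills about 6% of the alpha bar in the 4 SurvNESmut-GFP libraries and is not visible in Surv-GFP.

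The remaining tubulin genes were no members, and their calls are by edgeR with p adjusted over all 14201 genes. This list and those that follow were also chosen with earlier results of these data known. From the lists that follow, most genes are named because their called fold changes were the most extreme. The p-values do not allow for either choice. Of the 13 genes listed, 7 were tested: 5 fell and 1 rose upon TMZ in Surv-GFP, and 2 fell and 2 rose in SurvNESmut-GFP. Of all genes, 28.9% fell and 30.1% rose in Surv-GFP, and 19.1% fell and 18.6% rose in SurvNESmut-GFP. The median log2 fold change of the 7 was -0.47 and 0.12. TUBB1, TUBB4A, TUBB8, TUBA3E, TUBA4B and TUBAL3 had at most 13 reads in any library and were not tested. TUBA8, which overlaps PEX26 over 99.9% of its coding windows, had 2 to 23 reads and did not pass in either clone.

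TUBB4B, a broadly expressed class IV beta-tubulin, read 363 and 370 CPM in untreated and 199 and 202 CPM in exposed Surv-GFP. It read 579 and 570 CPM in untreated and 394 and 386 CPM in exposed SurvNESmut-GFP. It fell by 0.87 (SE 0.05; adjusted p = 9.8e-11) and 0.56 (SE 0.04; adjusted p = 6.9e-08) on the log2 scale, and the difference of 0.31 (SE 0.06) also passed (adjusted p = 0.0011). TUBB2B, the near copy of TUBB2A, read 94.0 and 101 CPM in untreated and 57.8 and 57.1 CPM in exposed Surv-GFP, and 80.1, 81.2, 91.7 and 83.8 CPM in SurvNESmut-GFP. It fell by 0.76 in Surv-GFP (adjusted p = 1.1e-08), while the value of 0.12 in SurvNESmut-GFP did not pass (adjusted p = 0.11). Its difference of TMZ effects was 0.88 (SE 0.08; adjusted p = 4.8e-07).

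TUBG1, the main gamma-tubulin and the template for microtubule nucleation, fell by 0.30 on the log2 scale in Surv-GFP (adjusted p = 0.00026). It rose by 0.20 in SurvNESmut-GFP (adjusted p = 0.0088), a call lost without untreated library b (adjusted p = 0.13) or exposed library a. The difference was 0.50 (SE 0.08; adjusted p = 0.00012). TUBG2, its less abundant relative, fell by 0.32 in Surv-GFP (adjusted p = 0.017), which did not pass without exposed library b or without either untreated library (adjusted p up to 0.12). TUBE1, the epsilon-tubulin of centrioles, rose in both clones, by 1.37 (adjusted p = 1.1e-08) and 0.97 (adjusted p = 1.2e-06). TUBD1, the delta-tubulin of centrioles, fell in both, by 0.47 (adjusted p = 0.0028) and 0.45 (adjusted p = 0.0024).

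**Figure D3:**
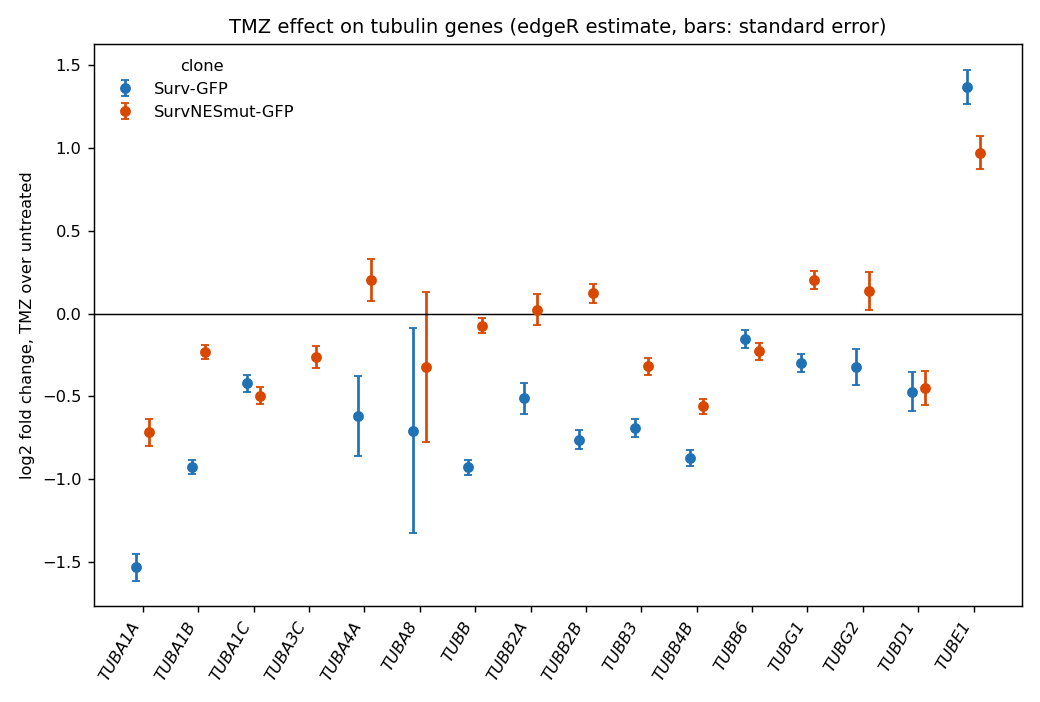
Log2 fold change upon TMZ (vertical axis) of the tested tubulin genes (horizontal axis) in Surv-GFP (blue) and SurvNESmut-GFP (orange), as edgeR estimates with standard errors (bars). TUBA3C has no Surv-GFP point because both groups were under the floor, and TUBE1, at 1.37 and 0.97, is the gene farthest above 0.

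The list for tubulin folding and the regulation of tubulin mRNA had 22 tested genes. It held the prefoldin and CCT subunits, which receive and fold new tubulin, and the cofactors TBCA to TBCE, which assemble the dimer. TBCEL, ARL2 and TTC5 were also on it, and of these TTC5 acts in autoregulation. In Surv-GFP 8 rose and 10 fell, and in SurvNESmut-GFP 1 rose and 8 fell, with medians of -0.02 and -0.07 beside 0.00 for all genes. These are 36.4% and 45.5% of the list in Surv-GFP, where 30.1% and 28.9% of all genes were called, and 4.55% and 36.4% in SurvNESmut-GFP, where it was 18.6% and 19.1%. PFDN2, a prefoldin subunit, rose by 1.20 in Surv-GFP (adjusted p = 9.7e-12) and by 0.30 in SurvNESmut-GFP (adjusted p = 0.00028), with a difference of -0.90 (adjusted p = 1.4e-07). PFDN6 rose by 0.41 in Surv-GFP (adjusted p = 9.9e-06). TBCD fell by 0.47 in Surv-GFP (adjusted p = 5.2e-07), and CCT4 fell by 0.40 (adjusted p = 2.1e-06) there and by 0.26 in SurvNESmut-GFP (adjusted p = 0.00037). In SurvNESmut-GFP PFDN4 fell by 0.38 (adjusted p = 4.7e-05) and TBCA by 0.32 (adjusted p = 0.0039), which was -0.19 with an adjusted p of 0.10 without untreated library b. TTC5 did not pass in either clone (-0.02 and -0.04).

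Of 21 tested enzymes that modify tubulin, 3 rose and 7 fell in Surv-GFP, and 5 rose and 3 fell in SurvNESmut-GFP (medians -0.09 and 0.12). That is 14.3% and 33.3% of the list beside 30.1% and 28.9% of all genes, and 23.8% and 14.3% beside 18.6% and 19.1%. VASH1 and VASH2, the vasohibins, which remove the terminal tyrosine of alpha-tubulin, fell in both clones. VASH2 had 128 and 136 reads in untreated and 22 and 30 in exposed Surv-GFP, and 145 and 142 in untreated and 76 and 78 in exposed SurvNESmut-GFP. It fell by 2.32 (SE 0.20; adjusted p = 3.4e-08) and by 0.75 (SE 0.15; adjusted p = 0.0011). VASH1 fell by 1.27 (adjusted p = 4.3e-09) and by 0.60 (adjusted p = 0.00054). AGBL5, a carboxypeptidase that removes glutamates from tubulin, rose by 0.89 (adjusted p = 1.9e-10) and by 0.71 (adjusted p = 1.4e-08), and TTLL7, a glutamylase of beta-tubulin, rose by 0.36 and by 0.37 (adjusted p = 0.0017 in both). AGBL2, with 3 to 19 reads per library, fell by 1.54 in Surv-GFP (adjusted p = 0.036), a call lost in 5 of 15 alternatives. Among these were the removal of untreated library a, of either exposed library or of untreated SurvNESmut-GFP library a. Over the alternatives its value lay between -1.89 and -1.14.

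Of 27 tested proteins that bind or sever microtubules, 6 rose and 12 fell in Surv-GFP, and 4 rose and 8 fell in SurvNESmut-GFP (medians -0.01 and 0.02). These shares, 22.2% and 44.4%, then 14.8% and 29.6%, stand beside the same 30.1% and 28.9%, then 18.6% and 19.1%, of all genes. MAP2 and MAPT, which stabilize neuronal microtubules, fell. MAP2 read 167 and 153 CPM in untreated and 55.3 and 65.3 CPM in exposed Surv-GFP, and 12.4 to 20.2 CPM in SurvNESmut-GFP. It fell by 1.41 (adjusted p = 1.0e-10) and by 0.50 (adjusted p = 0.003), and MAPT by 1.04 (adjusted p = 8.0e-07) and by 0.52 (adjusted p = 0.0022). MAP1B, another neuronal microtubule-associated protein, rose by 0.97 (adjusted p = 5.7e-09) and by 0.41 (adjusted p = 0.00021), the latter value being 0.26 without exposed library a. The plus-end binding protein MAPRE3 rose by 0.68 in Surv-GFP (adjusted p = 2.8e-06), and CLIP2 rose by 0.35 in SurvNESmut-GFP (adjusted p = 4.8e-05).

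Of 12 genes of the gamma-tubulin ring complex and of nucleation, 1 rose and 7 fell in Surv-GFP, and 1 rose and 5 fell in SurvNESmut-GFP (medians -0.14 and -0.11). In percent this was 8.33 and 58.3 in Surv-GFP, beside 30.1 and 28.9 of all genes, and 8.33 and 41.7 in SurvNESmut-GFP, beside 18.6 and 19.1. TUBGCP5, a subunit of the ring, fell by 0.66 in Surv-GFP (adjusted p = 1.6e-05) and PCNT, a centrosome scaffold, by 0.32 (adjusted p = 4.4e-05). In SurvNESmut-GFP MZT1, a small ring component, fell by 0.25 (adjusted p = 0.0028). TUBGCP5 fell there by 0.26 (adjusted p = 0.029), a call lost in 5 of 17 alternatives. Among these were the removal of untreated library a, where the value was -0.16, and of exposed library a. The ring subunit TUBGCP2 rose there by 0.21 (adjusted p = 0.0037). CDK5RAP2, which anchors the ring, rose by 0.12 in Surv-GFP (adjusted p = 0.045) and fell by 0.15 in SurvNESmut-GFP (adjusted p = 0.028). The call of the fall was lost in 6 of 17 alternatives and that of the rise in 11 of 17. For the rise these included the removal of either untreated or either exposed Surv-GFP library or of either untreated SurvNESmut-GFP library.

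**Figure D4:**
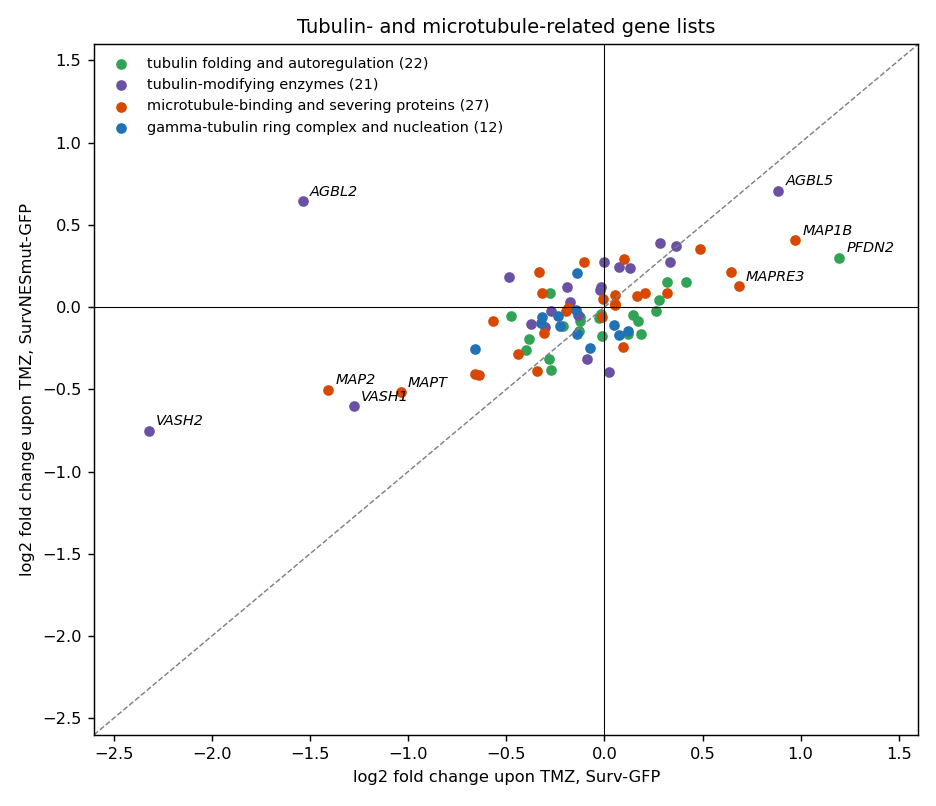
Log2 fold change upon TMZ in Surv-GFP (horizontal axis) against SurvNESmut-GFP (vertical axis) for the tested genes of 4 lists (colours, with the number of genes), the dashed line marking equal values. VASH2, VASH1, MAP2 and MAPT lie at the lower left, PFDN2, MAP1B and AGBL5 at the upper right, and AGBL2 has opposite signs in the 2 clones.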

How the data were processed

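RNA of 2 LN229 clones, untreated or exposed to TMZ, was measured by RNA-seq in 8 libraries, grouped by their sample labels. The authors deposited raw counts of reads for each gene symbol. STAR 2.5.0b, Cufflinks 2.2.1 and edgeR are named in the submitters' processing notes; the sources used here name no counter, genome build, annotation or strand setting. The 5 deposited comparison tables (fold changes, average log2 CPM, F, p and FDR of the authors) were not used. Reads on no gene (11.2 to 14.3% per library) and on several genes (1.19 to 1.28%) were left out.

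Counts were fitted in R 4.3.3 with edgeR 4.0.16 (TMM, filterByExpr, quasi-likelihood F test, 1 model of 4 group means), which left 14201 genes; p was adjusted after Benjamini and Hochberg over all of them at a threshold of 0.05. On simulated data for the TMZ effect in Surv-GFP, with 200 of 14201 genes changed by 1 on the log2 scale, 197 were recovered with 14 false calls. That simulation gave every gene the same spread and changed none of the lowest genes. It therefore does not show recovery for low or noisier genes. Members and gene lists were chosen with earlier results of these data known. Named genes were the members, all other tubulin genes and, of each list, the 2 called genes with the highest and the 2 with the lowest fold change per clone, plus the 1 gene most like each member. Sequences and lengths came from GENCODE release 29 and RefSeq (GRCh38.p14), where all 10 members matched; the coding ends of 4 members are not reported here. The floor was 3 counts. Intervals and floors cover counting error only. Alternatives were DESeq2 1.42.0, other scaling, filters and quasi-likelihood settings, a replicate block, the compared libraries only, each library left out, and other lengths for the shares.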

Additional observations from a re-analysis of the deposited data

Results flagged for a closer look

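TUBA4A is marked because both exposed Surv-GFP libraries lay below the untreated ones and both exposed SurvNESmut-GFP libraries above them. The difference of its TMZ effects was 0.82 on the log2 scale; it is a description, with no p given, since the members were chosen from these values. It was not called with DESeq2 or when single libraries (exposed Surv-GFP b, either untreated Surv-GFP or untreated SurvNESmut-GFP a) were left out.

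For the other genes the TMZ effect differed between the clones by edgeR's test of the difference, SurvNESmut-GFP minus Surv-GFP, on the log2 scale. Of the further lists only genes already named above are given, so this is no full account. The whole folding, modifying, binding and nucleation lists had 3, 6, 7 and 3 genes called higher and 7, 0, 4 and 2 lower. They held 22, 21, 27 and 12 tested genes. Of all genes, 16.6% were called higher and 20.2% lower. Among tubulin genes this held for TUBB4B (0.31, adjusted p = 0.0011), TUBB2B (0.88, adjusted p = 4.8e-07), TUBG1 (0.50, adjusted p = 0.00012), TUBG2 (0.46, adjusted p = 0.029) and TUBE1 (-0.40, adjusted p = 0.044). Among folding factors it held for TBCD (0.42, adjusted p = 0.00022), PFDN2 (-0.90, adjusted p = 1.4e-07) and PFDN6 (-0.26, adjusted p = 0.021). Among modifying enzymes it held for VASH1 (0.67, adjusted p = 0.0019), VASH2 (1.57, adjusted p = 0.00019) and AGBL2 (2.18, adjusted p = 0.034). Among microtubule-binding proteins it held for MAP1B (-0.56, adjusted p = 3e-04), MAP2 (0.91, adjusted p = 0.00011), MAPT (0.52, adjusted p = 0.021) and MAPRE3 (-0.56, adjusted p = 0.0035). In the nucleation list it held for TUBGCP2 (0.35, adjusted p = 0.0011), TUBGCP5 (0.40, adjusted p = 0.022), CDK5RAP2 (-0.27, adjusted p = 0.0067) and PCNT (0.23, adjusted p = 0.019).

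Some of these calls were lost when single libraries were left out, and some also under other settings. Of 16 alternatives in all, the call was lost in 7 for TUBG2, 10 for TUBE1, 9 for PFDN6, 4 for MAPT and 3 for TUBGCP5. The call of TUBG2 was lost without any 1 library except exposed Surv-GFP a and exposed SurvNESmut-GFP b (adjusted p up to 0.15, where the value was 0.30). That of TUBE1 was lost without any except untreated Surv-GFP a and exposed SurvNESmut-GFP a. That of PFDN6 was lost without any except exposed Surv-GFP a and exposed SurvNESmut-GFP a, and also with DESeq2 (adjusted p = 0.12). Over the alternatives the value of TUBE1 lay between -0.53 and -0.28 and that of PFDN6 between -0.32 and -0.20. AGBL2 lost its call without either exposed Surv-GFP library, untreated Surv-GFP a, exposed SurvNESmut-GFP a or untreated SurvNESmut-GFP b (adjusted p up to 0.21). MAPT lost it without exposed Surv-GFP b, untreated Surv-GFP a or untreated SurvNESmut-GFP a (adjusted p up to 0.092). TUBGCP5 lost it without untreated Surv-GFP b or untreated SurvNESmut-GFP b (adjusted p up to 0.11), and PCNT without exposed Surv-GFP a, either untreated Surv-GFP library or untreated SurvNESmut-GFP b (adjusted p up to 0.11).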

How the results depend on the processing

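The numbers of genes and members called higher and lower stayed within 1.5 times their values in every alternative run, except for the members called lower in SurvNESmut-GFP under TMZ. That count was 1 (TUBA1A) and became 0 with the compared libraries only and with the robust prior, and ranged from 0 to 1 when single libraries were left out; the cause was not tested. The share of TUBA1B in the alpha sum of untreated Surv-GFP moved from 78.1% to 70.7% with counts not divided by length, and to 70.6% with coding length. The share of TUBB in the beta sum moved from 55.1% to 66.2% and 66.3%. Of the further share values compared, 28 moved by more than the SD between replicates and 8 did not. Of the log2 differences of members, 79 values moved by more than the replicate SD and 676 did not. None of the values changed sign with a call. For the named genes that are no members, 2301 values kept their side of the threshold, 98 lost it and 25 passed it. The other genes of the lists were not compared across the alternatives. The letters a and b did not pair the libraries: their deviations correlated at -0.05 to 0.07 over the 6 pairs of groups. With the letter as a replicate block, 4186 genes rose and 4017 fell upon TMZ in Surv-GFP. As without the block, 8 members were called lower there and 6 in SurvNESmut-GFP. The members were chosen on these contrasts, so nothing is read from their counts in any run. Low depth limited TUBA4A, at 21 to 180 reads, and AGBL2, at 3 to 19 reads.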

Other observations

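TTL, the ligase that adds tyrosine back to alpha tails, and STMN1, which binds free tubulin dimers, were singled out after their values were seen. TTL rose upon TMZ by 0.34 on the log2 scale in Surv-GFP (edgeR, adjusted p = 1.1e-05) and by 0.28 in SurvNESmut-GFP (adjusted p = 0.00025). STMN1 fell by 0.64 (adjusted p = 4.9e-08) and by 0.41 (adjusted p = 2.1e-05).

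MBP, the myelin basic protein of oligodendrocytes, had 0 reads in all 4 Surv-GFP libraries and 102 to 131 reads in the 4 SurvNESmut-GFP libraries. S100B read 756 and 798 CPM in untreated Surv-GFP and 40.1 and 41.2 CPM in untreated SurvNESmut-GFP.

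For each tested member, the gene outside the tubulins with the highest Pearson correlation of log2 CPM over the 8 libraries was CRYL1 for TUBA1A (0.997), NRM for TUBA1B (0.995), TPX2 for TUBA1C (0.993), STK26 for TUBA3C (0.999), HERC2P2 for TUBA4A (0.999), PCYOX1 for TUBB (0.998), PAICS for TUBB2A (0.973), LRRC8C for TUBB3 (0.994) and TPM3 for TUBB6 (0.996). The 8 points share 4 groups, and many genes came close: 959 exceeded 0.95 for TUBA3C and 24 for TUBB2A.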
